A study of Mus musculus with 16 samples.

Results

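The genes described here are 9 components of tight junctions: the claudins Cldn1, Cldn3, Cldn4, Cldn5, Cldn7 and Cldn18, the transmembrane protein occludin (Ocln), and the cytoplasmic proteins Tjp1 and cingulin (Cgn). They were taken as all probe sets of the array annotated with 1 of these gene symbols alone, which gave 18 probe sets for 9 of the 18193 genes named on the array. Total RNA of the left lung had been put on Affymetrix mouse arrays, 1 per biological replicate, from male Balb/c mice aged 15 weeks. Second-hand smoke (SHS) was given daily (7 days a week, 5 hours each) at 10 mg/m3 of particles, and the other mice breathed filtered air. Groups carry 2 letters, the first for exposure in utero and the second for adult exposure, with S for SHS and A for air. The groups were SS (SHS at both times), AS (SHS as an adult only), SA (SHS in utero only) and AA (air at both times). Each had 4 arrays, but AS replicates 3 and 4, and SS replicates 1 and 2, differed by little more than technical noise. Both pairs were therefore reduced to their means and counted once, leaving 3 SS, 3 AS, 4 SA and 4 AA samples. RNA of the bulk tissue was measured, so a lower share of a cell type and less RNA per cell cannot be told apart. Lung epithelial genes were bright in all 14 samples, with log2 values of 15.01 to 15.10 for the surfactant gene Sftpc, 14.91 to 14.98 for Scgb1a1 of club cells and 14.29 to 14.64 for Ager of alveolar type 1 cells.

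Tight junctions close the gap between neighbouring epithelial or endothelial cells and set which ions and solutes can pass between them. Claudins form the strands of the junction, and the mix of claudins in a cell gives its barrier its ion selectivity. Occludin lies in the same strands, and Tjp1 and cingulin link the strands to the actin cytoskeleton. In the lung, Cldn18 is the main claudin of the alveolar epithelium, Cldn3, Cldn4 and Cldn7 are made by airway and alveolar epithelial cells, Cldn5 is the classic claudin of endothelium, and Cldn1 is known from airway epithelium. All values below are log2 values per probe set, in which a difference of 1 is a doubling. Probe sets bind with different strength, so levels are compared between samples of 1 probe set and not between genes.

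Adult SHS was set against adult air within each in-utero exposure (AS minus AA and SS minus SA) to ask which junction genes differ with smoke in adult life. Cldn3 was the member that changed, and it rose in both. At its brightest probe set (1451701_x_at), Cldn3 had 11.38, 11.21 and 11.84 in AS lungs, against 10.84, 10.95, 11.08 and 10.98 in AA lungs. In mice exposed in utero it had 11.21, 11.39 and 11.16 in SS lungs, against 10.66, 10.65, 10.78 and 10.74 in SA lungs. Every smoke-exposed adult lung thus lay above every lung kept in air, and the highest value was that of the averaged AS replicates 3 and 4. That sample also differed from the other AS lungs at probe sets that varied least in the other groups. The difference was 0.51 ± 0.12 (SE) between AS and AA, or 1.43-fold (95% interval 1.20 to 1.70; limma, adjusted p = 0.0429, n = 3 and 4). Between SS and SA it was 0.55 ± 0.12, or 1.46-fold (95% interval 1.23 to 1.73; limma, adjusted p = 0.0300, n = 3 and 4).

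**Figure D1:**
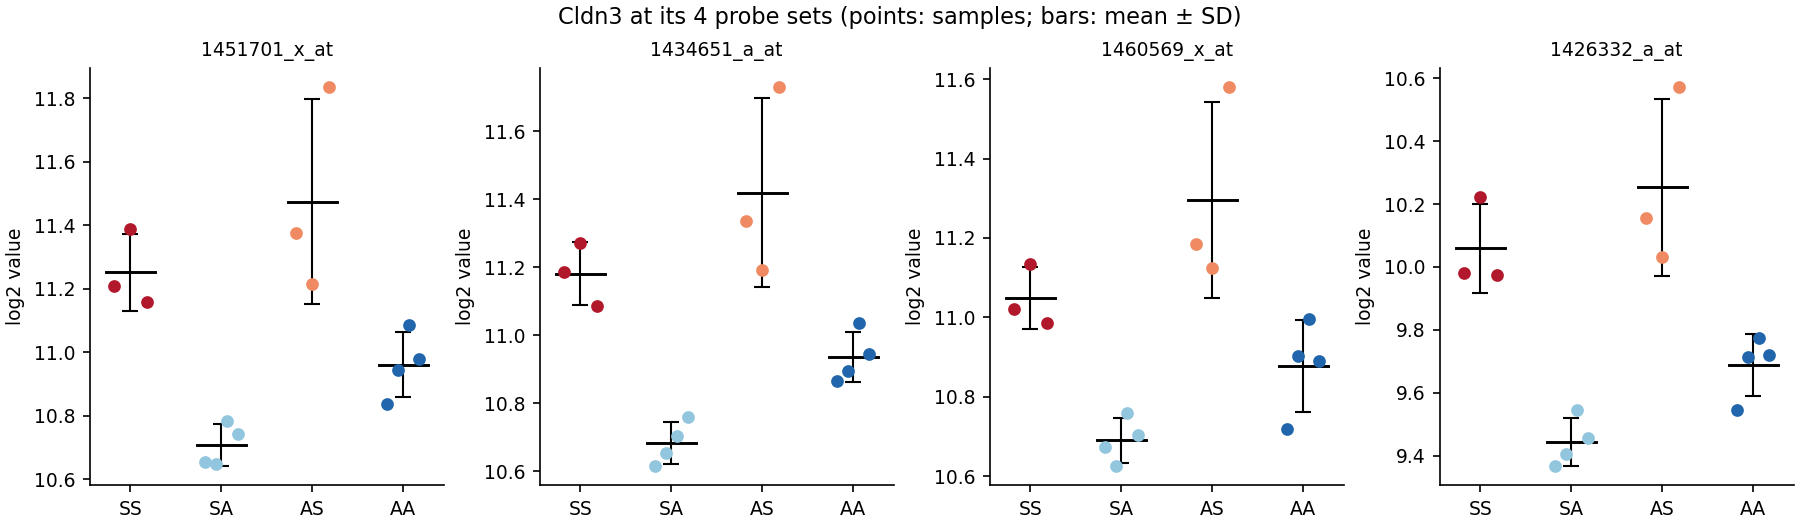
Log2 values of Cldn3 at each of its 4 probe sets, by group (SS, SA, AS, AA from left to right). Each point is 1 sample, the horizontal line is the group mean and the bar is ± 1 SD. At 3 of the probe sets all SS and AS samples lie above all SA and AA samples, and the highest point of each panel is the averaged AS replicates 3 and 4.

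Cldn3 has 4 probe sets, which read the same transcript and so are not independent measurements. The largest difference was at 1426332_a_at, which had 10.15, 10.03 and 10.57 in AS lungs against 9.55, 9.72, 9.77 and 9.72 in AA lungs. That probe set had 9.98, 10.22 and 9.98 in SS lungs against 9.37, 9.41, 9.55 and 9.46 in SA lungs. The groups did not overlap in either comparison (AS lay wholly above AA at 8.73% of all probe sets and SS above SA at 7.97%), and the differences were 0.56 ± 0.11 for AS minus AA (1.48-fold; limma, adjusted p = 0.0256) and 0.62 ± 0.11 for SS minus SA (1.53-fold; limma, adjusted p = 0.0110). Probe set 1434651_a_at had 11.34, 11.19 and 11.73 in AS lungs against 10.87, 10.90, 11.04 and 10.94 in AA lungs, and 11.19, 11.27 and 11.09 in SS lungs against 10.61, 10.65, 10.70 and 10.76 in SA lungs. Its differences were 0.48 ± 0.10 (adjusted p = 0.0338) and 0.50 ± 0.10 (adjusted p = 0.0236). Probe set 1460569_x_at had 11.19, 11.12 and 11.58 in AS lungs against 10.72, 10.90, 10.996 and 10.89 in AA lungs, and 11.02, 11.14 and 10.99 in SS lungs against 10.67, 10.63, 10.76 and 10.70 in SA lungs. The smallest Cldn3 differences were found there, with 0.42 ± 0.10 for AS minus AA (adjusted p = 0.0496) and 0.36 ± 0.10 for SS minus SA (adjusted p = 0.0954), which did not pass. The SS minus SA difference at that probe set did pass in 4 other fits (adjusted p from 0.0118 to 0.0336), among them the one without AS replicates 3 and 4. It did not pass in the other 13 fits without 1 sample. The suffix x_at marks probe sets that may bind related transcripts as well, and 1434651_a_at and 1426332_a_at carry no such mark.

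Of the 18 member probe sets, 4 were higher and 0 lower in AS against AA, all of Cldn3, where 0.591% of all 45037 probe sets were called higher and 0.961% lower. In SS against SA, 3 were higher and 0 lower, again all of Cldn3, with 0.773% of all probe sets called higher and 0.864% lower. Averaged over both in-utero groups, Cldn3 rose with adult SHS at all 4 probe sets, by 0.39 ± 0.07 to 0.59 ± 0.08 (limma, adjusted p from 0.00164 to 0.00769), and no other member passed. In that average, 2.82% of all probe sets were called higher and 3.13% lower. The separation of all smoke-exposed adults from all adults in air was seen at 3 of the 4 Cldn3 probe sets, against 0.764% of all probe sets. The call in AS against AA depended on single samples: 0 member probe sets passed without AA replicate 1, without AA replicate 2, or without AS replicates 3 and 4. The Cldn3 differences were 0.37 to 0.52, 0.43 to 0.57 and 0.28 to 0.40 in these fits, in that order. The count was 1 without AA replicate 4 or SS replicates 1 and 2, and 2 without any other 1 sample except AS replicate 2, and 0 in a fit of the AS and AA samples alone. In SS against SA, 0 passed without SS replicate 3 and 1 passed without SA replicate 1, 2 or 3 or without SS replicates 1 and 2, while over both in-utero groups all 4 Cldn3 probe sets passed whichever sample was left out.

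**Figure D2:**
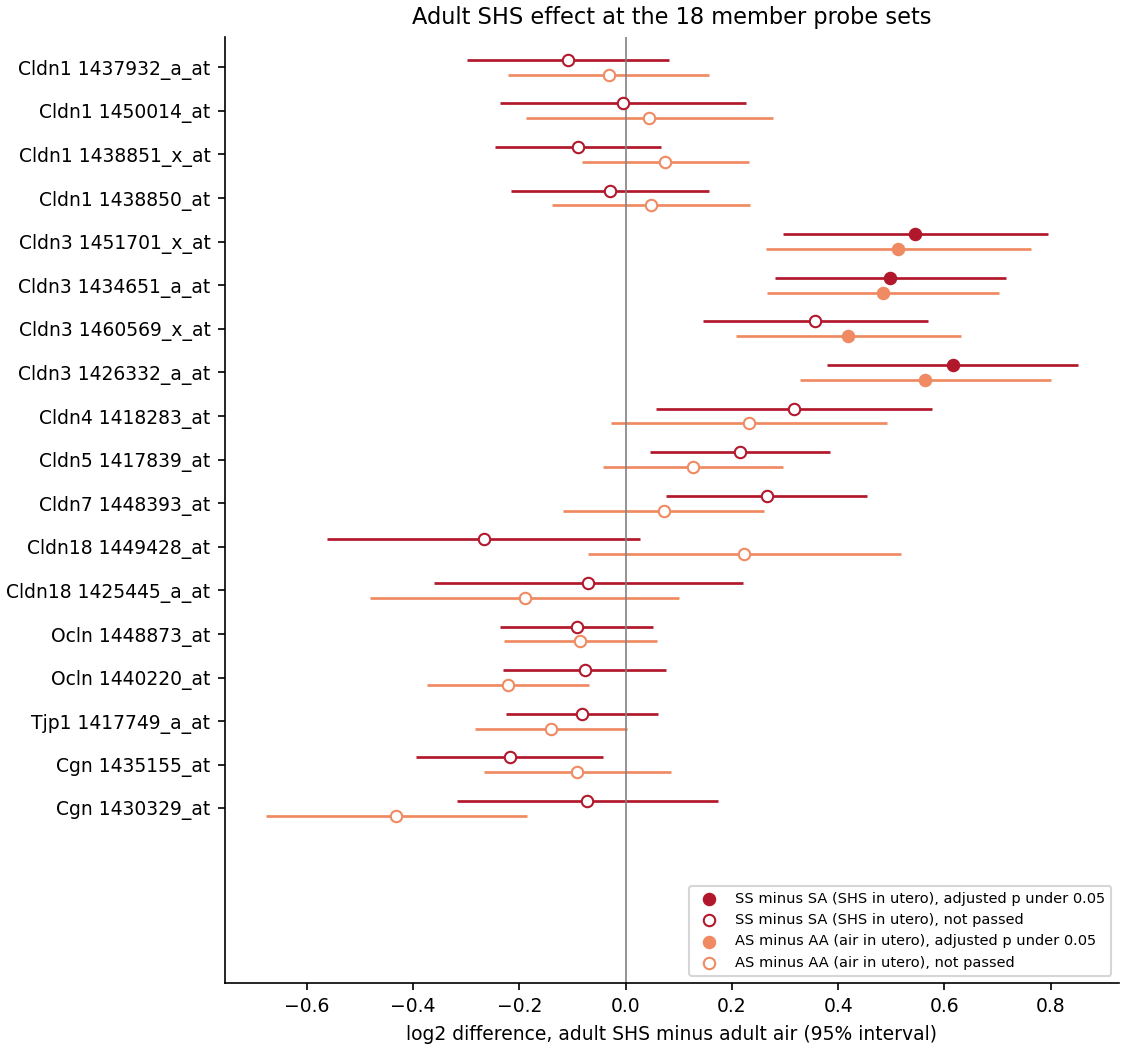
Difference in log2 value between adult SHS and adult air at the 18 probe sets of the 9 genes, with 95% intervals from the limma fit, for SS minus SA (red) and AS minus AA (orange). Filled points passed an adjusted p of 0.05, and all 7 of them belong to Cldn3.

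The Cldn3 gene lies beside Cldn4 on mouse chromosome 5. The sequence around the annotated start of each is shown because these neighbours are the members with the largest differences over both in-utero groups at their brightest probe sets, although Cldn4 did not pass. Each runs from 250 bases before to 50 bases after the RefSeq start (build GRCm38.p6, a C57BL/6J genome and not that of Balb/c), 5′ to 3′ on the gene's own strand. Cldn3 is at chr5:134985964-134986263 on the plus strand and Cldn4 at chr5:134946885-134947184 on the minus strand. Capitals mark TGANTCA, the motif of AP-1 factors, and TGACG, the core of the CREB motif, on either strand.
Cldn3: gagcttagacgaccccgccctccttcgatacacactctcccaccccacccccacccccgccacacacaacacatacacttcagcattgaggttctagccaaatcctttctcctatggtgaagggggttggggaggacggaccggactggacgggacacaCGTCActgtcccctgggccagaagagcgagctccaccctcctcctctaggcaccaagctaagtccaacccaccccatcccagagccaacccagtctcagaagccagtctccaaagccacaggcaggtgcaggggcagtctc
Cldn4: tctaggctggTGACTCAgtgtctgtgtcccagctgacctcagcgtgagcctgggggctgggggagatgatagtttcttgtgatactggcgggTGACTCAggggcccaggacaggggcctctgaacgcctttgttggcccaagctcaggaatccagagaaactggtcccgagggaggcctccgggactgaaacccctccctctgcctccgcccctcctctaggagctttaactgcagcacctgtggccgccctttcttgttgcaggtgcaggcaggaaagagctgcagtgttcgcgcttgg

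In these windows, Cldn4 held 2 matches to TGANTCA, beginning 240 and 158 bases before the start, and Cldn3 held none. Of all 32851 promoter windows of this length, 7.81% held a match on either strand. Cldn3 held 1 match to TGACG, which 20.8% of windows held, and Cldn4 held none. GGGCGG, the GC box, was found in both, as in 35.7% of windows. GCGTG, the core bound by the aryl hydrocarbon receptor that senses smoke hydrocarbons, was found in Cldn4 and not in Cldn3, against 32.4% of windows. TGACNNNGC, the antioxidant response element core, whose matches can overlap those of TGACG, was found in neither (12.4% of windows). AGAACA, one arm of a glucocorticoid receptor site, was also found in neither (19.0% of windows). A match is a description of the letters only.

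Cldn4, a claudin of airway and alveolar epithelium, was dim at its single probe set. It had 6.49, 6.54 and 6.87 in AS lungs, against 6.22, 6.39, 6.66 and 6.34 in AA lungs. It had 6.40, 6.51 and 6.71 in SS lungs, against 6.04, 6.18, 6.26 and 6.40 in SA lungs, so that the groups overlapped in AS against AA and met at 6.40 in SS against SA. The differences were 0.23 ± 0.12 (limma, adjusted p = 0.293) and 0.32 ± 0.12 (adjusted p = 0.240), and neither passed. Over both in-utero groups it was 0.27 ± 0.09 (95% interval 0.09 to 0.46; adjusted p = 0.0704), which also did not pass. It passed with all 16 arrays counted as separate samples (adjusted p = 0.0396), with a replicate block on them (adjusted p = 0.0101), without AA replicate 3 (adjusted p = 0.0374) and without SA replicate 4 (adjusted p = 0.0469). With the block, Cldn4 also passed in AS against AA (adjusted p = 0.0492).

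Cldn7, which lies along the sides of epithelial cells as well as in the junction, had 10.76, 10.85 and 10.80 in SS lungs against 10.46, 10.49, 10.56 and 10.64 in SA lungs. Those groups did not overlap, as was true with SS above SA for 7.97% of all probe sets, and the difference of 0.27 ± 0.09 did not pass (limma, adjusted p = 0.173). In mice that had air in utero, Cldn7 had 10.69, 10.59 and 10.95 in AS lungs against 10.52, 10.79, 10.74 and 10.63 in AA lungs, with overlap and a difference of 0.07 ± 0.09 (adjusted p = 0.671). Cldn7 passed in SS against SA with array weights (adjusted p = 0.0316). Over both in-utero groups it passed with all 16 arrays as separate samples (adjusted p = 0.0495) or with a replicate block on them (adjusted p = 0.0381). The fits of 16 arrays count the near-identical arrays separately. In neither comparison did Cldn7 pass in any of the 14 fits without 1 sample.

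Cldn5, the endothelial claudin, had 1 probe set, with values from 12.98 to 13.48 over the 14 samples. It had 13.41, 13.48 and 13.30 in SS lungs against 13.27, 13.24, 13.24 and 12.98 in SA lungs, and 13.36, 13.39 and 13.32 in AS lungs against 13.21, 13.17, 13.36 and 13.19 in AA lungs. SS lay above SA without overlap, as at 7.97% of all probe sets, while AS and AA overlapped. The differences of 0.21 ± 0.08 (limma, adjusted p = 0.222) and 0.13 ± 0.08 (adjusted p = 0.377) did not pass. The difference over both in-utero groups was 0.17 ± 0.06 (95% interval 0.05 to 0.29; adjusted p = 0.0817). Cldn5 passed there with all 16 arrays as separate samples (adjusted p = 0.0358), with a replicate block on them (adjusted p = 0.0300) and with an intensity trend and robust estimation (adjusted p = 0.0455). The fits of 16 arrays count the near-identical arrays separately, and Cldn5 did not pass in any of the 14 fits without 1 sample. The list of 10 endothelial markers, measured with it, averaged 11.76 to 11.80 in SS, 11.66 to 11.88 in SA, 11.77 to 12.07 in AS and 11.76 to 11.86 in AA samples, and their part in the Cldn5 values was not tested. Of these markers (17 probe sets) 1 passed over both in-utero groups, where 3.13% of all probe sets were called lower. This was Calcrl, which fell by 0.88 at a dimmer probe set (limma, adjusted p = 0.0185). The Calcrl difference was -1.24 in AS against AA (adjusted p = 0.0385). At that probe set Calcrl averaged 6.21 in SS against 6.72 in SA lungs, which did not pass. The brightest Calcrl probe set did not pass in any of these comparisons.

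Cldn18, the claudin that dominates the alveolar barrier, had 2 probe sets that did not move together. At 1449428_at it had 12.06, 12.29 and 12.69 in AS lungs against 12.18, 12.03, 11.92 and 12.34 in AA lungs. There it had 12.23, 11.90 and 12.12 in SS lungs against 12.43, 12.15, 12.43 and 12.39 in SA lungs. The difference was 0.22 ± 0.14 in AS against AA and -0.27 ± 0.14 in SS against SA, and neither passed (limma, adjusted p = 0.368 and 0.400). The difference between these 2 adult effects was -0.49 ± 0.19 (interaction, unadjusted p = 0.0239, adjusted p = 0.446). At 1425445_a_at Cldn18 had 11.72, 11.68 and 12.09 in AS lungs against 11.74, 12.42, 11.90 and 12.01 in AA lungs, and 11.94, 11.87 and 11.75 in SS lungs against 12.05, 11.83, 11.86 and 11.95 in SA lungs. All these groups overlapped, and the differences were -0.19 ± 0.14 and -0.07 ± 0.14, with an interaction of 0.12 ± 0.19 (adjusted p = 0.896). Over both in-utero groups, the intervals were -0.23 to 0.19 at the first and -0.34 to 0.08 at the second probe set.

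Cldn1 had 4 probe sets, and its brightest (1437932_a_at) had 6.73, 6.88 and 6.75 in AS lungs against 6.71, 6.85, 6.71 and 7.01 in AA lungs. It had 6.85, 6.99 and 6.79 in SS lungs against 7.02, 6.85, 7.12 and 6.95 in SA lungs, with overlap in both. Its adult differences were -0.03 ± 0.09 in AS against AA and -0.11 ± 0.09 in SS against SA (limma, adjusted p = 0.863 and 0.638). Probe set 1450014_at ranged from 5.41 to 5.92. The other 2, 1438851_x_at and 1438850_at, stayed between 2.67 and 3.26, near the lowest value of the table (2.40). The adult differences at these 3 lay between -0.09 and 0.07.

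**Figure D3:**
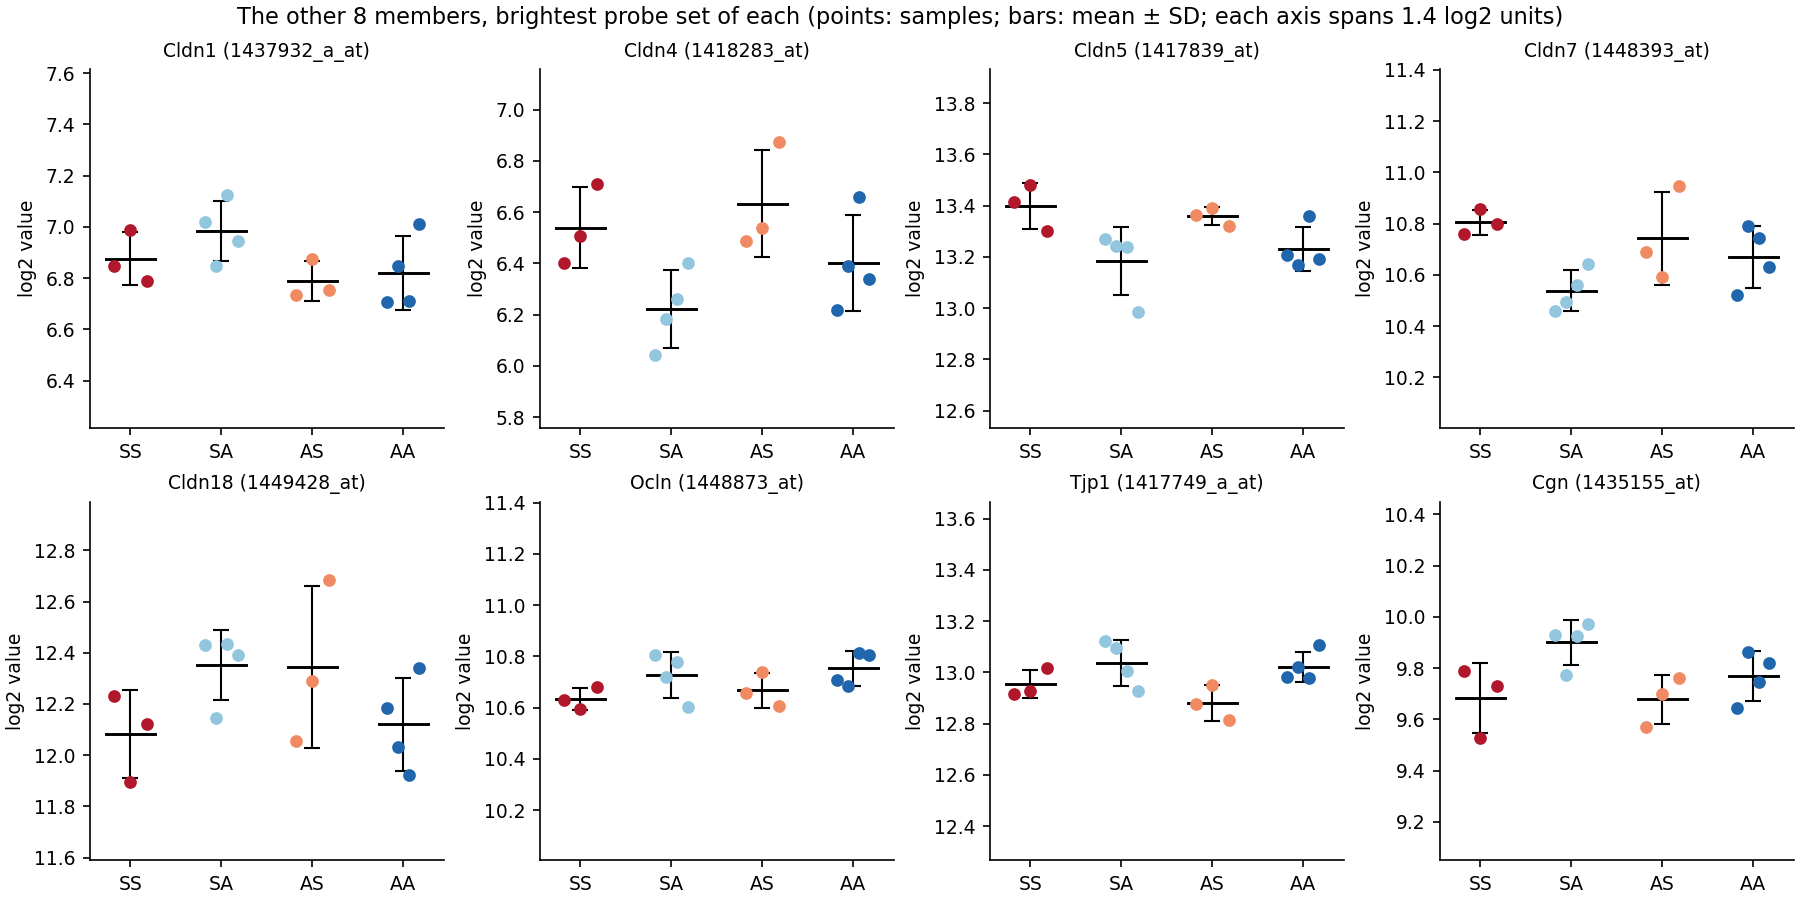
Log2 values of the other 8 genes at the brightest probe set of each, by group (SS, SA, AS, AA from left to right). Points are samples, lines are group means and bars are ± 1 SD, and each vertical axis spans 1.4 log2 units. SS lies above SA for Cldn5 and Cldn7 (as at 7.97% of all probe sets), AS lies below AA for Tjp1 (as at 7.57%), and the other SS and SA or AS and AA pairs overlap.

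Occludin had values below 0 for adult SHS at both of its probe sets, without passing. At the brighter (1448873_at) it had 10.66, 10.74 and 10.61 in AS lungs against 10.71, 10.68, 10.81 and 10.81 in AA lungs, a difference of -0.09 ± 0.07 (limma, adjusted p = 0.485). It had 10.63, 10.60 and 10.68 in SS lungs against 10.81, 10.72, 10.78 and 10.60 in SA lungs, again -0.09 ± 0.07 (adjusted p = 0.581), and the groups overlapped in both comparisons. At 1440220_at, Ocln had 9.57, 9.44 and 9.29 in AS lungs against 9.60, 9.59, 9.69 and 9.74 in AA lungs. AS lay below AA without overlap there, as did 7.57% of all probe sets, and the difference of -0.22 ± 0.07 did not pass (adjusted p = 0.117). That probe set had 9.46, 9.50 and 9.48 in SS lungs against 9.47, 9.56, 9.59 and 9.61 in SA lungs. Those groups overlapped, with a difference of -0.08 ± 0.07 (limma, adjusted p = 0.684).

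The cytoplasmic partners gave values of the same sign. Tjp1, the scaffold that binds claudin tails, had 12.88, 12.95 and 12.81 in AS lungs against 12.98, 13.02, 12.98 and 13.11 in AA lungs, wholly below AA, as at 7.57% of all probe sets, with a difference of -0.14 ± 0.07 (limma, adjusted p = 0.251). Tjp1 had 12.92, 12.93 and 13.02 in SS lungs against 13.12, 13.09, 13.01 and 12.93 in SA lungs, with overlap, and the difference was -0.08 ± 0.07 (adjusted p = 0.631). Cgn, which tethers junctions to actomyosin, had 9.79, 9.53 and 9.73 in SS lungs against 9.93, 9.77, 9.93 and 9.97 in SA lungs at its brighter probe set (1435155_at), a difference of -0.22 ± 0.08 (adjusted p = 0.234). At the dimmer 1430329_at, Cgn had 6.58, 6.53 and 6.59 in AS lungs against 6.76, 7.32, 7.07 and 6.86 in AA lungs. AS lay wholly below AA, as at 7.57% of all probe sets, and the difference of -0.43 ± 0.12 did not pass (adjusted p = 0.0688), with -0.09 ± 0.08 at the brighter probe set in the same comparison. The dimmer probe set had 6.99, 6.81 and 6.73 in SS lungs against 6.92, 6.75, 6.94 and 7.05 in SA lungs, with overlap and a difference of -0.07 ± 0.12 (adjusted p = 0.832). Over both in-utero groups, the intervals were -0.21 to -0.01 for Tjp1 and -0.28 to -0.03 for Cgn at its brighter probe set, with adjusted p = 0.159 and 0.120.

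At 1 probe set per gene, the 9 members had a median difference of 0.07 in AS against AA and -0.08 in SS against SA. The medians over all 18193 genes were 0.02 and -0.01. In-utero SHS was then tested in adults kept in air (SA against AA) and in adults given SHS (SS against AS), with the interaction as the test of whether the adult effect differs with it. Cldn3 was lowest in SA lungs, and its group means at the brightest probe set were 11.25 ± 0.12 in SS, 10.71 ± 0.07 in SA, 11.47 ± 0.32 in AS and 10.96 ± 0.10 in AA (SD, n = 3, 4, 3 and 4). All SA samples lay below all AA samples at 3 of its 4 probe sets, as did 1.69% of all probe sets. The Cldn3 differences in SA against AA were -0.19 ± 0.09 to -0.25 ± 0.11, with unadjusted p from 0.0178 to 0.0606, and none passed (limma, smallest adjusted p = 0.755). For SA minus AA, 0 of the 18 member probe sets and 0% of all 45037 probe sets passed. An unadjusted p under 0.05 was found at 3 of the 18, and at 6.23% of all probe sets.

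Between smoke-exposed adults, SS and AS overlapped at all 4 Cldn3 probe sets, with differences of -0.19 to -0.25 and adjusted p from 0.318 to 0.493. None of the 18 member probe sets passed in SS against AS (limma, 0 passed, against 0.968% of all probe sets). An unadjusted p under 0.05 was found at 3 of the 18, and at 13.6% of all probe sets. The 3 were 1434651_a_at and 1460569_x_at of Cldn3, lower in SS, and 1430329_at of Cgn, higher in SS. In the order of Cldn3 means, AS, SS, AA and SA, the neighbours AS and SS, and AA and SA, were thus not separated by the test; SS and AA were not set against each other. The adult effect on Cldn3 in mice exposed in utero minus that in mice kept in air was -0.06 ± 0.14 to 0.05 ± 0.16 over the 4 probe sets. Their 95% intervals together reached from -0.36 to 0.39, so a difference in effect of either sign remained possible. These bounds are not a limit of detection, and a larger difference could also have missed the threshold. For the interaction, 0 of 18 member probe sets passed (smallest adjusted p = 0.446), against 0.131% of all probe sets. An unadjusted p under 0.05 was found at 2 of the 18, Cldn18 at 1449428_at and Cgn at 1430329_at, and at 9.11% of all probe sets.

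Other genes of the junction were then counted from lists of other claudins, other tight junction genes, and adherens junctions and desmosomes. Of 17 other claudin genes with 23 probe sets, 0 passed in AS against AA, in SS against SA or over both (limma). Of all probe sets, 0.591% were called higher and 0.961% lower in AS against AA, and 0.773% and 0.864% in SS against SA. Over both, 2.82% were called higher and 3.13% lower, so a count of 0 among 23 says little about claudins. Among the other claudins, Cldn2, which forms cation pores, had 0.11 in AS against AA and 0.64 in SS against SA (adjusted p = 0.782 and 0.159). Cldn23 had -0.13 and -0.35 (adjusted p = 0.490 and 0.125), and Cldn22 had 0.28 and 0.18 (adjusted p = 0.144 and 0.431). The other claudins had a median of 0.11 over both in-utero groups, against 0.00 for all genes. Of these 17 genes, 10 had a mean log2 value under 7, and their median was 0.12, against -0.06 for the other 7. Over all genes the dim ones also sat higher, with medians of 0.07 for 7152 genes under 7 and -0.04 for 11041 at or above it.

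Among 31 other tight junction genes with 79 probe sets, 0 rose and 2 fell over both in-utero groups, each at 1 probe set, where 3.13% of all probe sets were called lower. These were the angiomotins Amotl2 (-0.24 ± 0.07, adjusted p = 0.0487) and Amot (-0.20 ± 0.05, adjusted p = 0.0417), which bind the polarity proteins of the junction and the YAP coactivator. Amotl2 averaged 11.75 in SS lungs against 12.15 in SA lungs, and this difference also passed by itself (-0.39 ± 0.09, adjusted p = 0.0497), while in AS against AA it was -0.08 (adjusted p = 0.645). The list median over both in-utero groups was -0.04. Esam, an adhesion molecule of endothelial junctions, had 0.20 (adjusted p = 0.0715), and Marveld2, which seals corners where several cells meet, had -0.14 (adjusted p = 0.135).

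Of 19 genes of adherens junctions and desmosomes with 51 probe sets, 0 passed in AS against AA or SS against SA, and 2 rose over both in-utero groups, each at 1 probe set, where 2.82% of all probe sets were called higher. In AS against AA, 0.591% of all probe sets were called higher and 0.961% lower, and in SS against SA 0.773% and 0.864%. Periplakin (Ppl), which links desmosomes to keratin, rose by 0.24 ± 0.06 (1.18-fold; limma, adjusted p = 0.0309). Desmoplakin (Dsp) rose by 0.20 ± 0.06 at a dimmer probe set (1427610_at, adjusted p = 0.0451), with -0.02 at its brightest (adjusted p = 0.883). The epithelial cadherin Cdh1 had -0.04 (adjusted p = 0.671) and Epcam, which binds Cldn7, had -0.05 (adjusted p = 0.542). The list median over both in-utero groups was -0.01.

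**Figure D4:**
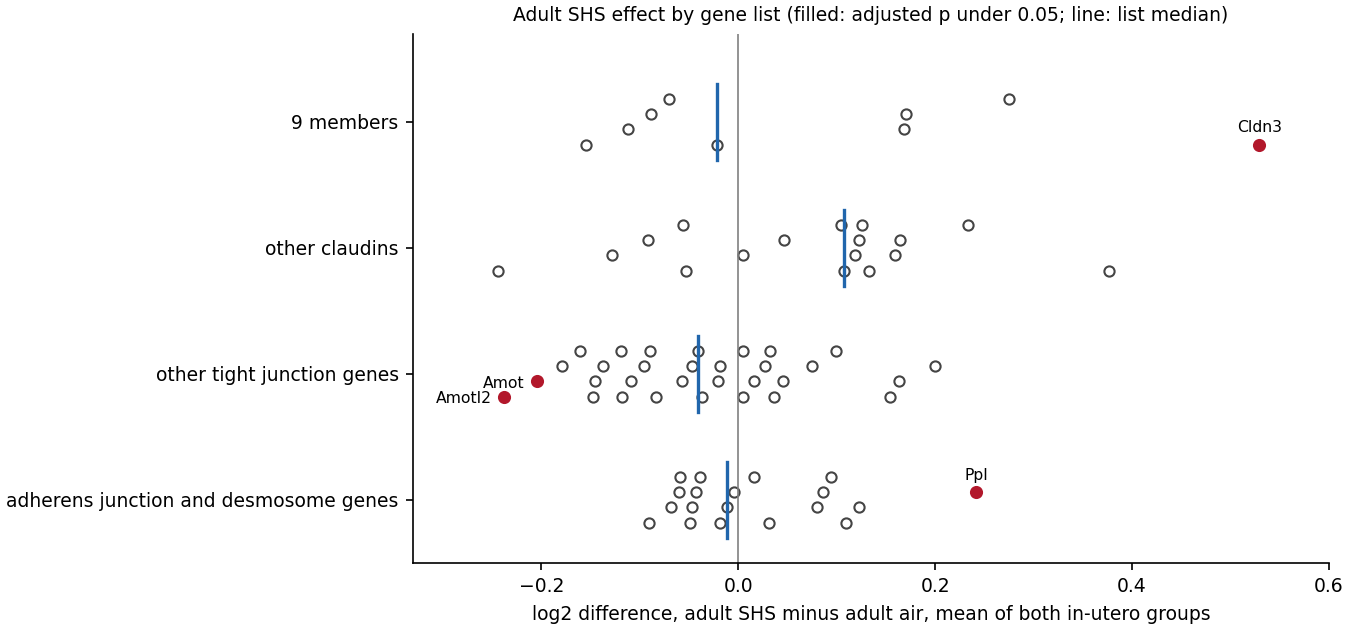
Difference in log2 value between adult SHS and adult air, averaged over both in-utero groups, with 1 probe set per gene, for the 9 members and 3 further lists of 17, 31 and 19 genes. Filled points passed an adjusted p of 0.05, and the blue lines are the list medians. Cldn3 and Ppl lie to the right, Amotl2 and Amot to the left.

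Markers of the lung's cell types were read beside Cldn3. The 12 epithelial markers had a mean log2 value of 10.00 to 10.07 in SS, 9.97 to 10.07 in SA, 9.98 to 10.26 in AS and 9.96 to 10.05 in AA samples. The 9 measured AT2 markers averaged 13.50 to 13.53 in SS, 13.45 to 13.54 in SA, 13.51 to 13.72 in AS and 13.46 to 13.55 in AA samples. In both lists the highest AS value was that of the averaged replicates 3 and 4, the sample with the highest Cldn3, and without it the AS range of the epithelial markers ended at 10.07. Over both in-utero groups, 1 of 12 epithelial markers (22 probe sets) rose, Krt18 by 0.26 ± 0.06 (limma, adjusted p = 0.0272), and 0 of 10 AT1 markers (22 probe sets) passed. Of 9 AT2 markers (16 probe sets) only Abca3 passed, which fell by 0.69 at a dimmer probe set. The difference there was -1.12 in AS against AA (limma, adjusted p = 0.00376). At that probe set Abca3 averaged 7.67 in SS against 7.92 in SA lungs, which did not pass, and was higher in SS than in AS (0.79, adjusted p = 0.0370). The brightest Abca3 probe set did not pass in any of these comparisons. Of 8 club cell markers (8 probe sets) 1 rose, Scgb3a1 by 0.72 ± 0.14 (adjusted p = 0.00999), and of 8 ciliated cell markers (10 probe sets) 1 fell, Tekt1 by 0.19 (adjusted p = 0.0457). Over both in-utero groups, 2.82% of all probe sets were called higher and 3.13% lower, and a single call does not describe its list. The part of these cell types in the Cldn3 difference was not tested.

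Other cell types were also read. The list of 8 macrophage and neutrophil markers averaged 9.55 to 9.76 in SS, 9.44 to 9.70 in SA, 9.52 to 10.08 in AS and 9.39 to 10.16 in AA samples. Over both in-utero groups 0 of their 9 probe sets passed, where 2.82% of all probe sets were called higher and 3.13% lower. The 8 mesothelial markers averaged 8.78 to 8.86 in SS, 8.83 to 8.90 in SA, 8.61 to 8.90 in AS and 8.92 to 9.02 in AA samples. Of these, Lrrn4 fell by 0.47 over both in-utero groups (adjusted p = 0.00237), and Upk1b fell by 0.32 in AS against AA at a dimmer probe set (adjusted p = 0.0262). The brightest Upk1b probe set did not pass there. The 10 fibroblast and smooth muscle markers averaged 10.96 to 11.07 in SS, 10.94 to 11.33 in SA, 10.82 to 11.20 in AS and 10.94 to 11.07 in AA samples. In that list the fibroblast regulator Tcf21 fell over both in-utero groups by 0.30 at its brightest probe set (limma, adjusted p = 0.0105). At a dimmer Tcf21 probe set the difference was -1.43 in AS against AA (adjusted p = 0.000396), with 7.55 in SS and 7.62 in SA lungs. There SS lay above AS (1.15, adjusted p = 0.00305) and the interaction passed (1.36, adjusted p = 0.0177). At the brightest Tcf21 probe set, AS against AA, SS against AS and the interaction did not pass. Col1a2 fell at a dimmer probe set with a mean log2 value of 5.85, by 1.25 in AS against AA and 1.13 in SS against SA (adjusted p = 0.0115 and 0.0128). At its brightest probe set Col1a2 did not pass in either comparison.

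Of the genes read beside Cldn3 on the chromosome, only Cldn3 passed. From one side to the other the protein-coding genes were Tmem270, Cldn13, Mettl27, Cldn4, Cldn3, Abhd11, Stx1a and Bud23. Over both in-utero groups, Mettl27 had -0.03 ± 0.08, Abhd11 -0.05 ± 0.05, Stx1a -0.12 ± 0.06 and Bud23 -0.02 ± 0.05 (limma, adjusted p = 0.845, 0.542, 0.186 and 0.814). Cldn13, a claudin of rodents, was dim and had 0.00 ± 0.09 (adjusted p = 0.980), and Tmem270 had 0.12 ± 0.08 (adjusted p = 0.401).

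The genes whose values over the 14 samples were most like those of a member were named by Pearson's r, among 11040 or, for Cldn4, 11041 genes with a mean log2 value of at least 7. They are a description, since the 14 samples share their 4 groups. For Cldn3 they were Ap1s1, a subunit of a clathrin adaptor (r = 0.946), Bhlhe40, a transcriptional repressor of the circadian clock (r = 0.946), and Gde1 (r = 0.935). For Cldn4 they were Bhlhe40 (r = 0.914), the simple epithelial keratin Krt8 (r = 0.886) and the glutamine transporter Slc1a5 (r = 0.885). Bhlhe40 itself had 0.58 in AS against AA (limma, adjusted p = 0.0618) and rose by 0.76 in SS against SA (adjusted p = 0.0193). For Cldn5 they were Ift43 (r = 0.908), Parl (r = 0.902) and Plekhf2 (r = 0.897), and for Cldn18 Hnrnpl (r = 0.899), Rubcn (r = 0.886) and Spsb3 (r = 0.863).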

How the data were processed

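RNA of the left lung from 16 biological replicates had been hybridised to Affymetrix whole-genome mouse arrays, per the labels. The authors deposited log2 values (1 for each probe set on each array), a scale taken from their range of 2.40 to 15.11. Array medians lay between 6.90 and 6.93, so the values were already normalized between arrays; how is not given in the sources used here. Limma is the only tool in the submitters' processing notes. No detection calls were made, and precision is limited by the number of arrays.

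Of 45101 probe sets, 64 controls were left out and 45037 tested. Symbols came from the platform annotation, updated through Entrez identifiers for 34741 probe sets; only the 34945 with 1 symbol were named. Of 24 within-group pairs of arrays, 2 had a ratio of 1.35 (AS replicates 3 and 4) and 1.24 (SS replicates 1 and 2) between their differences over the 300 most and the 3000 least variable bright probe sets, against 2.84 to 5.96 in the other 22. Over the 18 member probe sets these 2 pairs differed by at most 0.208 and 0.366, and were averaged. AS replicates 3 and 4 differed from AS replicates 1 and 2 by 0.207 to 0.257 (root mean square) even over the least variable probe sets. All other pairs differed there by 0.058 to 0.132. The averaged AS sample thus stood apart across the array, and the reason was not tested.

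Limma 3.58.1 (R 4.3.3) fitted a mean per group to 14 samples (10 residual degrees of freedom), with two-sided moderated tests and Benjamini-Hochberg adjustment over all probe sets, threshold 0.05. The fit was run on simulated data with independent noise and larger changes than those of Cldn3, so that run does not bear on the Cldn3 calls. The labels call the replicates biological and give no litter, batch or date. The p-values weigh group differences against the spread between samples of a group, each counted as independent. Samples that shared a litter would not be independent in any comparison, be it of adult SHS, of in-utero SHS or the interaction, and this cannot be checked. Every member probe set is described; other lists name genes past the threshold, and a few more claudin and junction genes were named after their values were seen. Likeness was read for Cldn3, Cldn4, Cldn5 and Cldn18, with 3 genes each. Members, lists and the averaging were chosen with earlier results of these data known. Of the lists, 9 genes were not matched on the array. Replicate numbers did not pair the arrays: 8 of 24 same-numbered pairs had a correlation of deviations above 0.1. Alternatives are given in the closing section.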

Additional observations from a re-analysis of the deposited data

Results flagged for a closer look

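In 2 of the 36 groups of 4 samples read (the 18 probe sets in SA and in AA), 1 sample stood apart from the other 3 by more than 0.829 of the range, where chance gives about 1 in 20. Cldn5 was 12.98 in SA replicate 4, against 13.24 to 13.27 in the other SA samples, a gap of 0.896 of the range. Cldn18 at 1449428_at was 12.15 in SA replicate 2, against 12.39 to 12.43 in the others, a gap of 0.855 of the range. Groups of 3 samples were not read in this way. No interaction passed for a member.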

How the results depend on the processing

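The Cldn3 increase over both in-utero groups kept its direction and passed at every probe set tested, in all 56 values that left out 1 sample (0.32 to 0.64) and in all 29 under other settings (0.35 to 0.62). Within one in-utero group it was less stable: AS minus AA passed in 22 of 56 values without 1 sample (0.28 to 0.67) and 27 of 33 others, and SS minus SA in 31 of 56 (0.31 to 0.66) and 28 of 33. The cause was not tested.

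Without 1 sample, the member probe sets past the threshold numbered 0 to 4 in AS minus AA and 0 to 4 in SS minus SA. AS minus AA had 0 without AS replicates 3 and 4 and 1 without SS replicates 1 and 2, which also left 1 in SS minus SA. With all 16 arrays as separate samples, which counts the near-identical arrays separately, 9 passed over both in-utero groups. With a replicate block on 16 arrays (the numbers do not pair the samples, and 5 of 16 arrays correlated best with their own number) these were 7 in AS minus AA, 8 over both in-utero groups and 1 in SS minus AS. Array weights gave 5 in SS minus SA. With 1 probe set per gene, which tests fewer features, they were 0 in AS minus AA, 1 in SS minus SA and 1 over both; with only the groups compared, AS minus AA had 0.

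Over all probe sets, AS minus AA (699) had 3565 with 16 arrays, 3761 with the block, 179 with 1 probe set per gene and 47 with only the groups compared; it had 381 without AS replicates 3 and 4, 399 without SS replicates 1 and 2, and 185 to 905 without 1 sample. SS minus SA (737) had 1345, 1268 with the block, 2154 with array weights and 470 with 1 per gene, 288 without SS replicates 1 and 2, 1014 without AS replicates 3 and 4, and 171 to 764 without 1 other sample. The average over both (2680) had 5771, 5703 with the block, 4713 with weights and 1500 with 1 per gene, 1365 without SS replicates 1 and 2, and 1032 to 3616 without 1 sample. SS minus AS (436) had 2214, 2364 with the block, 1181 with weights, 134 with 1 per gene, 131 with only the groups compared, 150 without SS replicates 1 and 2, and 136 to 507 without 1 sample. The interaction (59) had 330, 529 with the block, 205 with weights, 89 with further quantile normalization, 89 with an intensity trend, 27 with 1 per gene, 105 without AS replicates 3 and 4, 26 without SS replicates 1 and 2, and 23 to 115 without 1 sample. SA minus AA had 0 in every setting (limma, 2808 with an unadjusted p under 0.05).

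Signs turned only for results near 0. The Cldn3 interaction became -0.0689 (1451701_x_at), -0.0630 (1434651_a_at) and -0.0477 (1426332_a_at) with 16 arrays, with and without the block, and -0.0023 (1434651_a_at) with quantile normalization. At 1460569_x_at it became 0.0400 with array weights and 0.0799 without AS replicates 3 and 4. At the first 3 probe sets, the interaction ran from -0.0983 to 0.0787, -0.0999 to 0.0606 and -0.0587 to 0.0990 without 1 unaveraged sample, and up to 0.212, 0.168 and 0.211 without AS replicates 3 and 4. Cldn18 at 1449428_at became 0.0396 over both in-utero groups with 16 arrays, with and without the block, ran from -0.0557 to 0.0501 without 1 unaveraged sample, and was -0.107 without AS replicates 3 and 4. In AS minus AA, Cldn7 became -0.0301 without AS replicates 3 and 4, and Cldn1 at 1437932_a_at ran from -0.0766 to 0.0323 without 1 sample.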
